A study of Mus musculus with 8 samples.

Results

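Integrins are cell surface receptors made of an alpha and a beta chain, and the genes of both kinds of chain were followed here in mouse macrophages given human or rat islet amyloid polypeptide (IAPP, amylin). The members were all array probes whose platform gene symbol was one of 10 integrin genes, 7 alpha chains (Itga4, Itga5, Itga6, Itgal, Itgam, Itgav, Itgax) and 3 beta chains (Itgb1, Itgb2, Itgb5). Of these 10 genes, 9 were named by a probe in the annotation used here, out of 16593 genes in all, through 11 of the 25697 probes. Itgal, the alpha chain of LFA-1, was not analysed here. RNA came from 8 culture wells of C57BL/6 mouse macrophages grown from bone marrow, 4 given rat IAPP and 4 given human IAPP for 12 hours. All wells shared 7 days of growth in DMEM with 10% FBS and 15% L929-conditioned medium, which supplies macrophage growth factor, and 12 hours without the latter before peptide was added. The peptide dose was 15 µM by the titles and the design text, and the protocol field has the same figure in millimolar. Human IAPP aggregates into amyloid and the rat peptide does not readily do so, so that the rat wells are the control, and no untreated wells are among the samples. Aggregation and the sequence difference between the peptides cannot be told apart. Nothing in the labels says that the wells came from separate animals, so the p-values speak only to well-to-well spread, possibly technical.

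An alpha chain pairs with a beta chain before the receptor reaches the cell surface, and the alpha chain largely sets which ligand is bound. The beta 2 chain (Itgb2, CD18) pairs with the leukocyte alpha chains Itgal, Itgam and Itgax, whose receptors bind adhesion molecules of other cells and complement fragments. The beta 1 chain (Itgb1, CD29) pairs with many alpha chains and serves adhesion to matrix, and the alpha V chain (Itgav, CD51) pairs with several beta chains, among them beta 1 and beta 5, in receptors for vitronectin and related proteins. In macrophages these receptors serve adhesion, migration and the uptake of particles and dying cells.

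The chain genes moved apart from each other. With human IAPP the alpha chain genes Itgav and Itga5 rose 3.46-fold and 2.46-fold and the beta chain gene Itgb1 rose 1.49-fold on its brighter probe, while Itgb5 and Itga6 fell to 52.8% and 60.6% of their level with rat IAPP. Itgam and Itgb2, the chains of the macrophage receptor Mac-1, did not pass the test. Itga4 and Itgax were not detected in either group. In all, 9 of the 11 probes and 7 of the 9 genes passed the filter on dim signals (detection p under 0.05 on at least 4 arrays), and each of those 9 probes was detected on all 8 arrays. Of the 7 genes, taken at their brightest probe, 3 were higher and 2 lower (limma, Benjamini-Hochberg adjusted p under 0.05), where 55.5% of all 7809 tested genes were called, 23.5% higher and 32.0% lower. That split depended on scaling: 6.48% of genes were higher and 39.5% lower when arrays were scaled to equal medians in place of quantile normalisation (median scaling), and 29.9% and 25.9% with the authors' rescaled values. A call alone is thus common in this comparison.

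Per array, between 42.1% and 47.6% of all probes were detected, and arrays had mean raw signals of 1144 to 1967 intensity units. Rat array 4 stood apart, with a mean SD of its log2 differences to the other rat arrays of 0.371, against 0.265 to 0.282 for the other 7 arrays within their groups. The 5 called integrin genes were called without it too. The macrophage markers listed for a check of the label and named by a probe (Adgre1, Cd14, Fcgr1, Lyz2, Mertk and Mrc1, 6 of 8 listed) were detected on all 8 arrays. Their summed level was 196839 to 211348 units with rat and 203545 to 212655 with human IAPP, but Lyz2 was near the ceiling of the scale (above 60000 units) on all 8 arrays and weighs on that sum. Cd14, near the ceiling on 1 array, was 0.63 higher on the log2 scale, which is not exact, and Adgre1, Mertk and Fcgr1 fell by 0.48, 1.19 and 1.62, and their part in the integrin results was not tested. Of the markers of other cells, 0 of 7 dendritic, 0 of 7 lymphocyte, 0 of 5 mast cell or basophil, 0 of 6 stromal and 0 of 3 erythroid genes passed the filter, and neither did the neutrophil genes Ltf, Camp, Ngp, S100a9 and Cxcr2 or the platelet genes Gp9, Gp1bb and Itga2b. S100a8 and Ppbp passed it and did not pass the test. In these bulk samples a lower signal from fewer cells and from less RNA per cell cannot be told apart.

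Itgav encodes the alpha V chain. Its normalised log2 intensity was 8.95, 8.50, 8.83 and 8.40 in rat wells 1 to 4 and 10.21, 10.45, 10.48 and 10.70 in human wells 1 to 4. The lowest human well thus lay above the highest rat well by more than the whole range of either group. The difference was 1.79 (95% interval 1.46 to 2.11, SE 0.15, n = 4 per group, limma adjusted p = 7.8e-06), and 98.2% of all tested probes had a smaller or more negative difference. Raw signals, before any normalisation, also did not overlap, with 576.1 to 1120.6 units in rat and 1339.1 to 1669.3 units in human wells.

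Itga5 encodes the alpha 5 chain, which pairs with beta 1 in the classical fibronectin receptor, and 2 probes measured it. The brighter probe read 10.24, 9.88, 9.96 and 9.94 in rat wells 1 to 4 and 11.20, 11.41, 11.25 and 11.33 in human wells 1 to 4. The other probe read 8.60, 8.42, 8.44 and 8.64 with rat and 9.72, 9.83, 9.88 and 9.77 with human IAPP. Both probes separated the groups fully, and they gave nearly the same difference, 1.30 (SE 0.097, adjusted p = 4.5e-06) and 1.27 (SE 0.082, adjusted p = 1.7e-06), each with n = 4 per group in the limma fit. The dimmer probe gave 0.83 with no background correction and 0.84 with median scaling, both still called. Their raw signals did not overlap between groups either, although for the dimmer probe the gap was small (at most 924.4 units in rat and at least 925.6 in human wells).

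Itga6 encodes the alpha 6 chain, a laminin receptor chain that pairs with beta 1 or beta 4. It read 8.30, 8.43, 8.51 and 8.17 in rat wells 1 to 4 and 7.68, 7.76, 7.40 and 7.67 in human wells 1 to 4, so that every human well lay below every rat well. It fell by 0.72 on the log2 scale (95% interval -0.96 to -0.48, SE 0.11, n = 4 per group, limma adjusted p = 0.00035). This probe is dim, and its difference shrank to -0.31 with the authors' rescaled values and -0.33 with no background correction, both still called. With median scaling it was -1.15, or -0.75 relative to the median of all genes in that setting.

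Itgam encodes the alpha chain of Mac-1 (CD11b, complement receptor 3), by which myeloid cells bind complement-coated particles, fibrinogen and ICAM-1. Its level was 10.23, 10.24, 10.00 and 10.18 in rat wells 1 to 4 and 10.02, 10.01, 10.16 and 9.89 in human wells 1 to 4. The groups overlapped, and the difference of -0.14 (95% interval -0.34 to 0.06, SE 0.088, n = 4 per group) did not pass the limma test (adjusted p = 0.20). The interval leaves room for a fall of up to 0.34 on the log2 scale. With median scaling the median difference of all tested genes became -0.40, and Itgam was then called lower (-0.55, adjusted p = 0.043), which is -0.15 relative to that shift.

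Both remaining leukocyte-type alpha chains gave no measured level. Itga4, a chain of receptors for VCAM-1, had raw signals of 307.5 to 386.6 units in rat and 293.4 to 338.4 units in human wells, and Itgax (CD11c), a chain used to mark dendritic cells, had 300.1 to 373.9 and 290 to 320.9 units. Neither probe passed detection on any of the 8 arrays, so they were not well above background and no fold is given.

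Among the tested beta chains Itgb5 was the one that fell. Its product pairs with alpha V in a vitronectin receptor that phagocytes also use in taking up dying cells. It read 12.59, 12.84, 12.53 and 12.83 in rat wells 1 to 4 and 11.91, 11.72, 11.76 and 11.71 in human wells 1 to 4, with no overlap. It fell by 0.92 on the log2 scale (95% interval -1.14 to -0.70, SE 0.097, n = 4 per group, limma adjusted p = 4.2e-05), and 5.73% of all tested probes had a more negative difference. Raw signals ran from 6053.2 to 9772.3 units in rat and from 2829.2 to 3749.8 units in human wells.

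Itgb1 was measured by 2 probes that did not give the same answer. The brighter probe read 9.20, 9.0, 9.05 and 9.0 in rat wells 1 to 4 and 9.66, 9.57, 9.55 and 9.76 in human wells 1 to 4, without overlap, a difference of 0.57 (95% interval 0.39 to 0.76, SE 0.082, n = 4 per group, limma adjusted p = 0.00030). The dimmer probe read 8.50, 8.34, 8.59 and 7.81 with rat and 8.40, 8.47, 8.53 and 8.68 with human IAPP, with overlapping groups and rat well 4 far below the rest. Its difference of 0.21 (SE 0.16) did not pass the limma test (adjusted p = 0.29), and it was 0.05 (adjusted p = 0.70) without rat well 4. The rise of Itgb1 thus rests on 1 probe and on the scaling of the arrays: raw signals of that probe overlapped (726 to 1245 units in rat, 891.4 to 1006.9 in human wells), and with median scaling its difference was 0.13 (adjusted p = 0.65), or 0.53 above the median of all genes in that setting.

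Itgb2 encodes the beta chain shared by the leukocyte integrins. It read 10.48, 10.71, 10.47 and 10.69 in rat wells 1 to 4 and 10.52, 10.61, 10.73 and 10.92 in human wells 1 to 4. The groups overlapped, and the difference of 0.11 (95% interval -0.13 to 0.35, SE 0.11, n = 4 per group) did not pass the limma test (adjusted p = 0.43). Its sign turned with median scaling (-0.31, adjusted p = 0.25), which is 0.09 above the median of all genes in that setting.

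**Figure D1:**
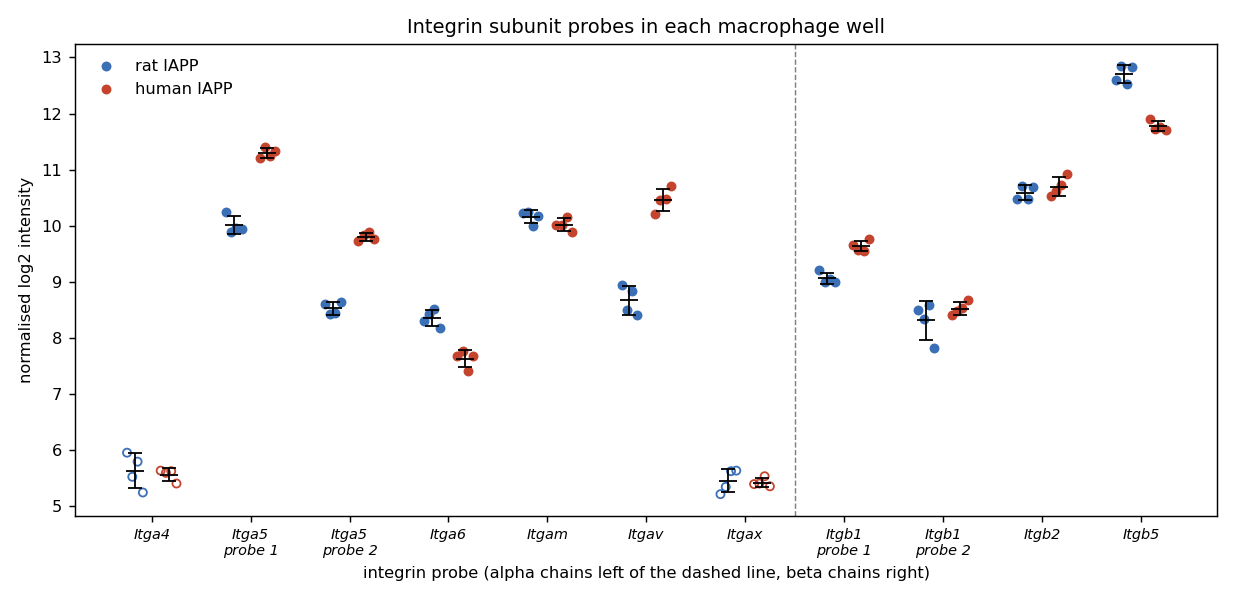
Normalised log2 intensity (vertical axis) of each integrin probe (horizontal axis) in the 4 rat IAPP wells (blue) and 4 human IAPP wells (red), with black bars for the mean ± SD and open points for probes detected on no array. Both Itga5 probes, Itgav, Itga6, Itgb5 and the brighter Itgb1 probe (probe 1) separate the groups, whereas Itgam, Itgb2 and the dimmer Itgb1 probe overlap.

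Taken by chain, 2 of the 4 tested alpha chain genes were higher, 1 was lower and 1 was not called, with a median log2 difference of 0.58 and a range from -0.72 to 1.79. Of the 3 beta chain genes 1 was higher, 1 lower and 1 not called, with a median of 0.11 and a range from -0.92 to 0.57. The median over all tested genes was -0.06. Groups did not overlap for 5 of the 7 genes, where the share over all tested genes was 51.3%. The only called rise of a beta chain was that of the brighter Itgb1 probe: with median scaling it was not called (0.13, adjusted p = 0.65), 0 of the 3 beta chain genes were higher and Itgb2 had a negative value. With so few genes no difference between alpha and beta chains as classes was tested. Counted by probe instead of gene, 6 of the 9 passed the test (4 up with human IAPP, 2 down), against 54.5% of all 11451 tested probes, 24.6% higher and 29.9% lower.

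**Figure D2:**
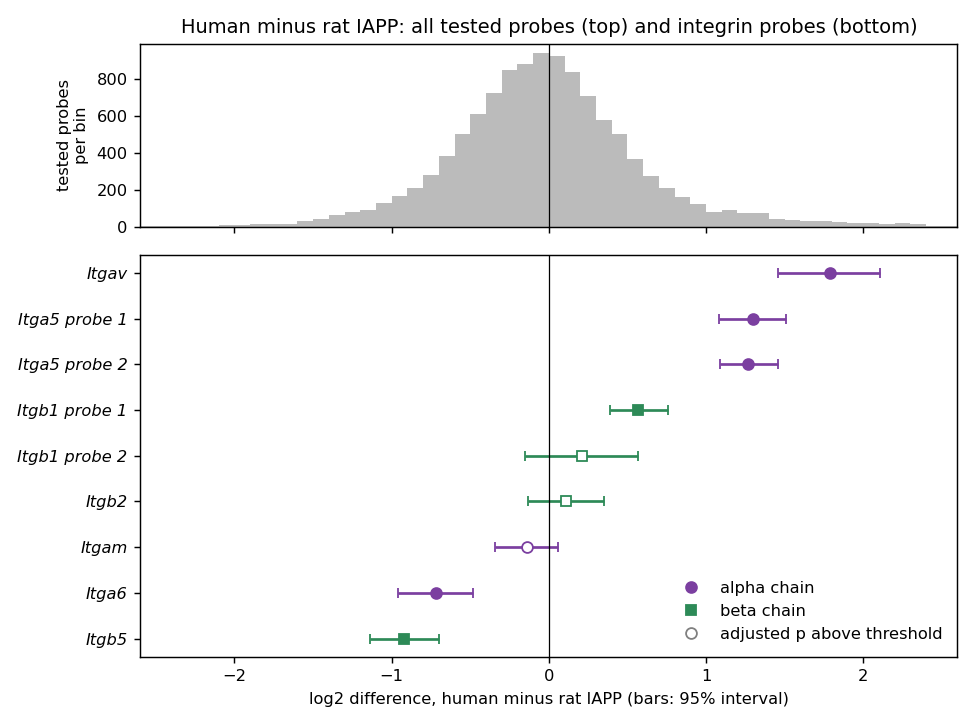
The upper panel counts all tested probes by their log2 difference, human minus rat IAPP (horizontal axis, whose ends leave out the most extreme probes), and the lower panel gives each tested integrin probe with its 95% interval, alpha chains as circles, beta chains as squares and uncalled probes open. Itgav at 1.79 and Itga5 at 1.30 and 1.27 lie in the right tail, Itgb5 at -0.92 and Itga6 at -0.72 in the left, and the intervals of Itgam, Itgb2 and the dimmer Itgb1 probe cross 0.

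Chains that pair with each other were then set against one another within each array, for the 5 known pairs of member genes in which both were tested. The value is the log2 intensity of the alpha chain probe minus that of its partner's probe, and since probes differ in brightness only its change between groups can be read, not its level. For Itgav against Itgb5 it ran from -4.43 to -3.64 in rat wells and from -1.70 to -1.01 in human wells, a shift of 2.71 or 6.55-fold. That shift shrank to 2.13 with no background correction and 1.99 with the authors' rescaled values, both still past the threshold. Here the partners moved in opposite directions, and the groups were far apart. For Itgav against Itgb1 it ran from -0.60 to -0.22 with rat and from 0.55 to 0.94 with human IAPP, a shift of 1.22. That shift was 0.88 both with no background correction and with the authors' rescaled values. For Itga5 against Itgb1 the shift was 0.72, from 0.87 to 1.04 in rat wells to 1.54 to 1.84 in human wells, so that the Itga5 signal gained more than that of Itgb1, the only partner chain of alpha 5. For Itga6 against Itgb1 it was -1.29, from -0.91 to -0.54 in rat wells to -2.15 to -1.81 in human wells, and it shrank to -0.72 with no background correction and -0.73 with the authors' rescaled values, both still past the threshold. Each of these 4 shifts had the smallest p that 4 wells against 4 can give in a two-sided exact permutation test (p = 0.029, or 0.036 adjusted over the 5 pairs). For all 4 this p was fixed in advance by the ranges of the single genes at their brightest probes. In Itgav/Itgb5 and Itga6/Itgb1 both chains had already separated the groups fully and in opposite directions. In Itga5/Itgb1 and Itgav/Itgb1 both chains rose. There the alpha chain rose by so much that no matching of arrays within a group could make the groups overlap. For these 4 pairs the test adds nothing to the single-gene results. With the other probes of Itga5 and Itgb1 the shifts ran from 0.70 to 1.08 for Itga5/Itgb1, from -1.29 to -0.93 for Itga6/Itgb1 and from 1.22 to 1.58 for Itgav/Itgb1. For Itgam against Itgb2, the Mac-1 pair, the value was -0.43 ± 0.12 (SD, n = 4) in rat and -0.68 ± 0.24 (SD, n = 4) in human wells, a shift of -0.25 that did not pass the exact permutation test (p = 0.057, adjusted p = 0.057). That shift was -0.13 without human well 4, and it was -0.31 and past the threshold without human well 1 (exact permutation test, adjusted p = 0.029). The pairs share chains, Itgb1 in 3 of them and Itgav in 2, so they are not independent of each other. The share of other gene pairs that would separate in this way was not computed, so the separation cannot be read as a trait of integrin partners. Taken singly, 51.3% of all tested genes did not overlap between groups, which is a share of genes and not of pairs.

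**Figure D3:**
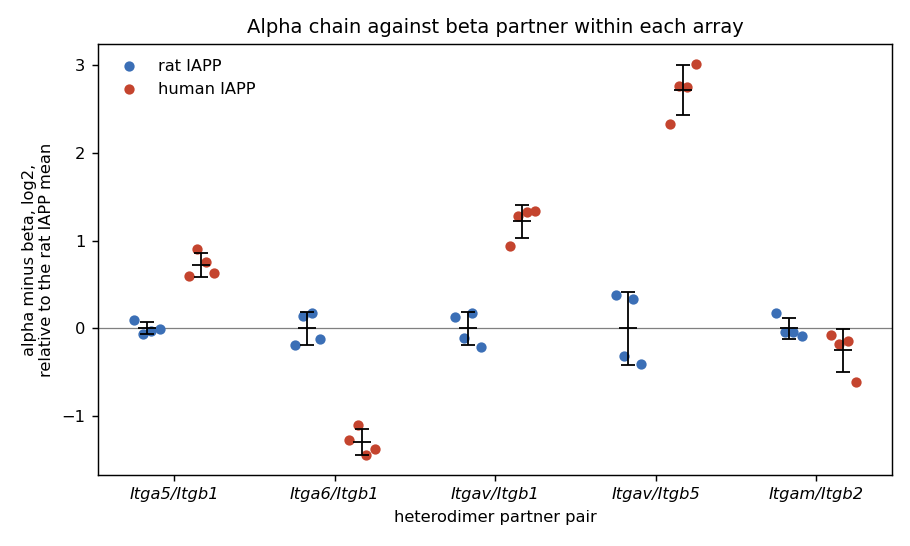
Alpha chain minus beta partner in log2 intensity within each array (vertical axis, relative to the rat IAPP mean of the pair) for 5 heterodimer pairs (horizontal axis), with 1 point per well and black bars for mean ± SD. Itgav gained on both Itgb5 and Itgb1 and Itga5 gained on Itgb1, Itga6 lost against Itgb1, and the Itgam/Itgb2 groups overlap, with human well 4 below the others.

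The 250 bases before the annotated start are shown for the genes at both ends of this range, Itgav and Itga5 that rose and Itgb5 that fell, with Itgam, a myeloid gene that was not called, beside them. They are from RefSeq (GRCm38.p6; the promoter table used here had entries for 7 of the 10 members), written 5′ to 3′ on the strand of the gene: Itgav at chr2:83724147-83724396, plus strand; Itga5 at chr15:103366792-103367041, minus strand; Itgb5 at chr16:33829415-33829664, plus strand; and Itgam at chr7:128062390-128062639, plus strand. Capitals mark matches, on either strand, to a GC box (GGGCGG, bound by Sp1-type factors), to the core of PU.1 sites (GAGGAA, PU.1 being a myeloid transcription factor) and to an AP-1 site (TGANTCA).
Itgav: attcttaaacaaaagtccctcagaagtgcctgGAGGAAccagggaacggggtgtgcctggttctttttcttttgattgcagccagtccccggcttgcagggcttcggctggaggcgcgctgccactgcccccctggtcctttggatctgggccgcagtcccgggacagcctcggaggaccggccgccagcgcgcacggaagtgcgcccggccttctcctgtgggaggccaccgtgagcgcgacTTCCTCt
Itga5: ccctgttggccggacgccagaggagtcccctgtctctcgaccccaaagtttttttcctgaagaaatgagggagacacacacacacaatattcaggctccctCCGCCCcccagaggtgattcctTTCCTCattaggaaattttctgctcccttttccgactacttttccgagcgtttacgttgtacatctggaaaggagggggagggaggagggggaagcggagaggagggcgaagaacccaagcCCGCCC
Itgb5: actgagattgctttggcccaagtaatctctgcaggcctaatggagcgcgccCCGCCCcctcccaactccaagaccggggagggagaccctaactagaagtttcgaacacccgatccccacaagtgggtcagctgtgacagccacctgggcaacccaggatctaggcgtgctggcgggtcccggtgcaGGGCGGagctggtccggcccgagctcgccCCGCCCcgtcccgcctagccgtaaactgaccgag
Itgam: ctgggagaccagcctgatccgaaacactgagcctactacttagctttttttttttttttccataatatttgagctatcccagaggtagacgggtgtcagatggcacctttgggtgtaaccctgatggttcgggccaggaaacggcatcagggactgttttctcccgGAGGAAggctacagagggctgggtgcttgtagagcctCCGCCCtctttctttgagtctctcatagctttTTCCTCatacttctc
Itgb5 held 3 GC boxes and no PU.1 core, Itgav held 2 PU.1 cores and no GC box, Itga5 held 2 GC boxes and 1 PU.1 core, and Itgam held 1 GC box and 2 PU.1 cores. None of the 4 windows held an AP-1 match, and no matches overlapped. Among 32817 RefSeq promoter windows of the same length, 32.7% held a GC box, 23.3% a PU.1 core and 6.75% an AP-1 match. GC content was 64.4% for Itgav, 55.6% for Itga5, 65.2% for Itgb5 and 49.6% for Itgam. A match is a run of letters in the window and says nothing of whether a factor was bound.

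Other integrin subunits were nearly all dim. Of 15 further subunit genes with a probe, 2 passed the filter. Itga1, the alpha 1 chain of a collagen receptor with beta 1, went from 7.98 ± 0.19 (SD, n = 4) with rat to 7.04 ± 0.13 (SD, n = 4) with human IAPP, and it fell by 0.94 (SE 0.11, limma adjusted p = 7.8e-05) without overlap. Like Itga6, it is a dim probe whose difference was smaller with the authors' rescaled values (-0.34, still called). Itgb7, the beta chain that pairs with Itga4 or Itgae, was 10.90 with rat and 10.97 with human IAPP and was not called (difference 0.07, SE 0.078, adjusted p = 0.51). Its sign turned with median scaling (-0.33), which is 0.07 above the median of all genes in that setting. Itga2, Itga2b, Itga3, Itga7, Itga9, Itga11, Itgad, Itgae, Itgb2l, Itgb3, Itgb4, Itgb6 and Itgb8 did not pass the filter. Itgb3, the partner of alpha V in osteoclasts and platelets, was detected on no array.

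Genes that work with integrins were taken from 4 lists, and each list held called genes in both directions. Their SEs are those of the log2 difference. Named as called are up to 3 genes in each direction, those with the smallest p in that direction. Fermt3, Icam1 and Col4a1 were named after their values were seen. Over all tested genes 55.5% were called, 23.5% higher and 32.0% lower, and the shares of the lists are to be read against that. Of the activators and adaptors, 7 of 22 tested genes were higher and 6 lower, 59.1% in all beside 55.5% of all tested genes. Their median log2 difference was 0.01. Vcl, encoding vinculin, rose 2.50-fold, from 11.41 to 12.73 (SE 0.072, n = 4 per group, limma adjusted p = 5.8e-07). The actin cross-linker genes Actn1 and Actn4 rose 1.62-fold and 1.69-fold (SE 0.086 and 0.12), calls lost with median scaling (adjusted p = 0.11 and 0.10). In that setting they still lay 0.82 and 0.80 above the median of all genes. Cytip, whose product binds the cytohesins that act on beta 2 integrins, fell by 1.19 (SE 0.11), the adaptor gene Fyb by 0.82 (SE 0.14), and Pxn, the paxillin gene, by 0.54 (SE 0.094). Fermt3, the kindlin of blood cells, was 12.32 with rat and 12.33 with human IAPP and was not called.

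Of the signalling genes, 6 of 17 were higher and 5 lower, 64.7% in all beside 55.5% of all tested genes, with a median of 0.05. Src, the kinase gene, rose 3.09-fold, from 7.13 to 8.76 (SE 0.11, adjusted p = 2.4e-06, limma). Its difference was 0.74 with the authors' rescaled values, still called. Ptk2b, the gene of the focal adhesion kinase relative PYK2, rose 1.97-fold (SE 0.089), a log2 difference of 0.98 that was 0.56 with median scaling. The latter is 0.96 above the median of all genes in that setting. Elmo1, which acts in engulfment with Dock1, rose 1.76-fold (SE 0.094) on its brightest probe, and 10 of its 12 tested probes were called higher. With median scaling the log2 difference of Elmo1 was 0.51 (limma adjusted p = 0.048), or 0.91 above the median of all genes. Dock1 itself fell by 1.05 (SE 0.27, detected on 3 of 4 human arrays), or by 0.30 with the authors' rescaled values. The kinase gene Fgr and the adaptor gene Tyrobp fell by 0.43 and 0.35 (SE 0.10 and 0.095), and neither passed on the authors' rescaled values (adjusted p = 0.15 and 0.59); the call of Fgr was also lost with no background correction (adjusted p = 0.066).

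Of the ligands, 2 of 12 were higher and 3 lower, 41.7% in all beside 55.5% of all tested genes, with a median of 0.00. Col4a2 and Lamc1, both basement membrane genes, rose 1.82-fold and 1.55-fold (SE 0.17 and 0.12), calls lost with median scaling (adjusted p = 0.081 and 0.39). In that setting they still lay 0.89 and 0.62 above the median of all genes. Col4a1, of the same list, was 6.80 with either peptide and was not called (limma adjusted p = 0.99). F11r, which encodes the junctional protein JAM-A, fell by 0.97 (SE 0.090), Thbs1, the thrombospondin gene, by 0.72 (SE 0.095) and Icam2 by 0.55 (SE 0.10). With the authors' rescaled values the differences were -0.54 for F11r, -0.16 for Icam2 and 0.33 for Col4a2, all still called. With median scaling that of Thbs1 was -1.09 and that of Icam2 -0.91, or -0.69 and -0.51 relative to the median of all genes in that setting. Icam1, the ligand gene of LFA-1 and Mac-1, was 0.25 higher (SE 0.0995) without overlap and missed the threshold (limma adjusted p = 0.060).

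Of the membrane proteins that associate with integrins, 3 of 10 were higher and 2 lower, 50% in all beside 55.5% of all tested genes, with a median of 0.10. Plaur, the urokinase receptor gene, whose product binds vitronectin and acts beside integrins, rose 5.23-fold, from 10.10 to 12.49 (SE 0.079, adjusted p = 2.8e-08, limma). Slc3a2, the CD98 heavy chain gene, rose 2.64-fold (SE 0.15) and the tetraspanin gene Cd9 1.77-fold (SE 0.094). Cd47, encoding the integrin-associated protein, fell by 0.72 (SE 0.11), and Cav1 by 0.34 (SE 0.083), which did not pass on the authors' rescaled values (adjusted p = 0.32). With the authors' rescaled values the difference was 0.91 for Slc3a2 and -0.47 for Cd47, both still called. The medians of the 4 lists lay between 0.00 and 0.10, near the -0.06 of all tested genes.

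**Figure D4:**
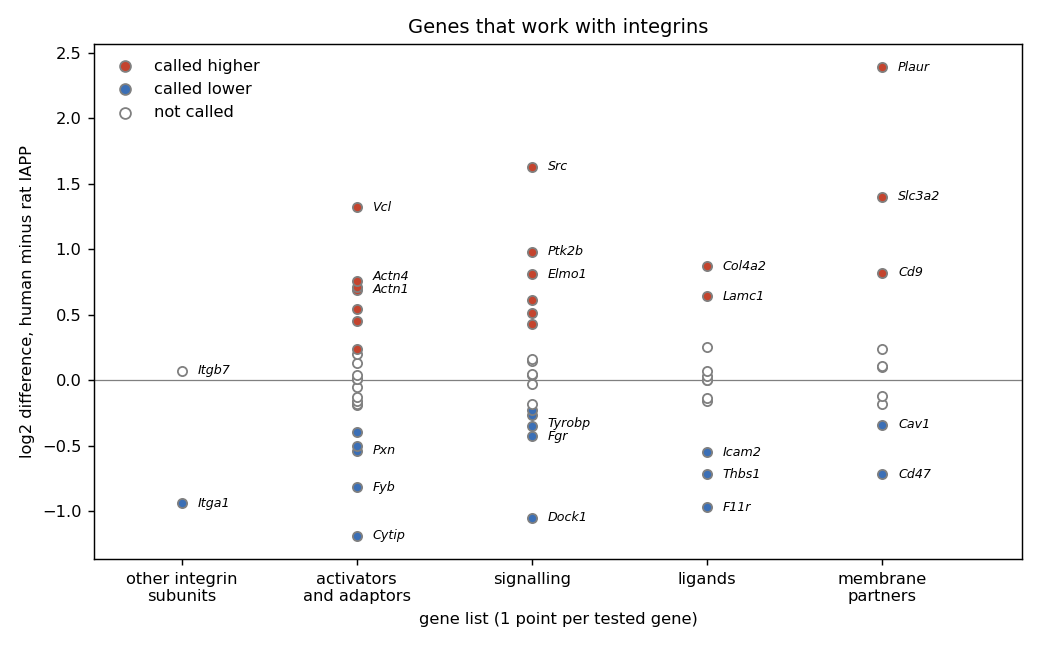
Log2 difference, human minus rat IAPP (vertical axis), of each tested gene of 5 gene lists (horizontal axis), coloured by call, with names for most genes given in the text. Each of the 4 lists of working partners holds called genes on both sides of 0, from Plaur at 2.39 to Cytip at -1.19.

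The genes whose wells followed Itgav and Itgb5 most closely were found by the root mean square distance of their 8 log2 values, each centred on its rat mean. Nearest to Itgav were Lrp12, a lipoprotein receptor relative (distance 0.11, difference 1.80), and the TNF receptor family gene Tnfrsf26 (0.12, difference 1.86, or 1.19 with the authors' rescaled values). Nearest to Itgb5 were the phosphatase family gene Dusp28 (0.066, difference -0.89, or -0.46 with the authors' rescaled values), Pik3r6, a subunit gene of PI3K gamma (0.078, difference -0.84), and the glycosyltransferase gene B3gnt8 (0.081, difference -0.85). The distance covers 8 arrays and includes the difference between groups, and it is given as a description.

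**Figure D5:**
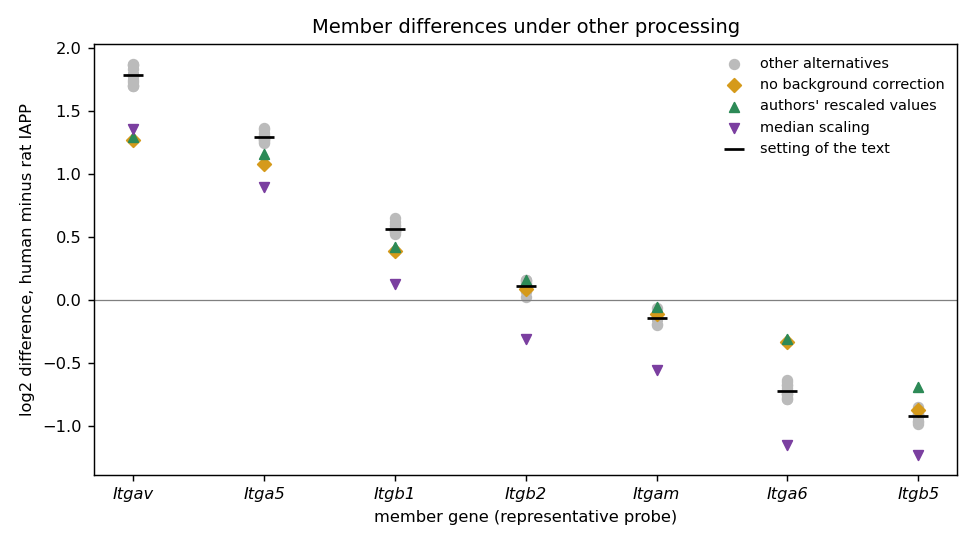
Log2 difference of each tested member gene, human minus rat IAPP (vertical axis, 1 gene per position), with the setting of the text as a black bar and the alternatives as points. Itgav, Itga5, Itga6 and Itgb5 kept their side of 0 in all of them, Itgb1 came down to 0.13 and Itgb2 to -0.31 with median scaling, and Itga6 moved up to -0.31 with the authors' rescaled values.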

How the data were processed

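Labelled cRNA was hybridised to Illumina bead arrays. The authors deposited linear probe intensity values, not normalised across arrays, and a detection p-value per probe, per the file headers; the software is not stated there. The other table the authors deposited has intensity values they rescaled by an unstated method, linear and uncentred (column medians 352.6 to 361.1 for rat and 359.2 to 367.7 for human wells).

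In limma 3.58.1 (R 4.3.3) the background was corrected (nec, which infers negative controls from detection p-values, with an offset of 16, which shrinks differences of dim probes), followed by quantile normalisation and log2. Probes with detection p under 0.05 on at least 4 of 8 arrays were tested (11451 of 25697) with lmFit and eBayes, and p-values were adjusted by Benjamini-Hochberg over all of them. A gene is its brightest tested probe. The platform annotation gave 1 symbol for 23978 probes and none for 1719. The scripts were tested on simulated data, and precision is limited by the number of arrays.

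The members and lists were chosen with earlier results of these data known. Also named are up to 3 called genes per direction and list, detected further subunits, called markers of other cells (0 genes) and the 3 genes nearest to the members with the highest and lowest difference, of which 1 is not reported here. Alternatives were other background corrections and normalisations, the rescaled values, filters, variance models, array weights, a block for replicate number, leaving out each array, a threshold of 0.01 and the mean over probes. Same-numbered wells did not deviate together (correlations of -0.11, -0.01, 0.17 and -0.02).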

Additional observations from a re-analysis of the deposited data

Results flagged for a closer look

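In Itgav against Itgb1, human well 1 had an alpha minus beta value of 0.55, apart from the other 3 human wells at 0.88 to 0.94 and still above all 4 rat wells. Its gap took 0.848 of the group's whole range, which is past Dixon's 95% limit for 4 samples. In all, 28 groups of 4 wells were examined, and chance alone gives about 1 such group in 20.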

How the results depend on the processing

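The 5 called integrin genes numbered 5 under each alternative run, and the 6 called probes 6. With median scaling, Itgam took the place of Itgb1 among them, so that 2 were higher and 3 lower. That setting reversed the sign of Itgb2 (-0.31), of the dimmer Itgb1 probe (-0.24) and of Itgb7 (-0.33), none of them called in either setting. The median difference of all tested genes was -0.40 there. Of all genes called, 14.1% were higher there, 42.3% in the text's setting and 53.5% with the authors' rescaled values. With replicate number as a block all 5 gene calls stayed, while 0 of 5 chain pairs passed, since 4 pairs of wells cannot give a two-sided exact p below 0.125. The labels do not say whether wells of the same number belong together. Over the alternatives the log2 difference ran from 1.27 to 1.88 for Itgav, 0.90 to 1.37 for Itga5, 0.13 to 0.65 for Itgb1, -1.15 to -0.31 for Itga6 and -1.23 to -0.69 for Itgb5. The cause of these shifts was not tested. Dim probes such as Itga6 and Itga1 lie close to background, which limits their folds.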

Other observations

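Within the rat group, wells 1 and 3 had the higher Itgav values (8.95 and 8.83) and the lower Itgb5 values (12.59 and 12.53), and wells 2 and 4 had the lower Itgav (8.50 and 8.40) and the higher Itgb5 (12.84 and 12.83). Itgb2 split the same wells, with 10.48 and 10.47 in wells 1 and 3 and 10.71 and 10.69 in wells 2 and 4. Rat wells 1 and 3 also had the higher mean raw signals over all probes (1538 and 1967 units, against 1523 and 1180 in wells 2 and 4). In the human group, well 1 had the lowest Itgav (10.21) with the highest Itgb5 (11.91), and well 4 the highest Itgav (10.70) with the lowest Itgb5 (11.71). Human wells 2 and 3 went the other way, since well 3 had more of both (Itgav 10.48 against 10.45, Itgb5 11.76 against 11.72). These are 4 wells a group, chosen for mention after their values were seen, and no test was made.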
